A study of Mus musculus with 6 samples.

Results

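Polycomb group proteins keep genes silent through modified chromatin. Polycomb repressive complex 2 (PRC2) methylates lysine 27 of histone H3 with either of a pair of enzymes, Ezh2 or Ezh1, held in a core with Eed and Suz12. Polycomb repressive complex 1 (PRC1) ubiquitinates histone H2A and is sorted into variants by its Pcgf subunit, and its canonical variants bind the methyl mark through a Cbx subunit. Dividing cells are known for high Ezh2 and resting cells for more Ezh1, and Hox genes and cell cycle inhibitors are classical Polycomb targets. The 9 genes described here are the PRC2 genes Ezh1, Ezh2, Eed, Suz12 and Jarid2 and the PRC1 genes Bmi1, Pcgf2, Cbx2 and Cbx8. Their rows were taken by symbol from the 54429 genes of the count table, from a list drawn up with earlier results of these data known. All 9 were in the table, and all 9 passed the filter on low counts that left 16065 genes for testing.

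The libraries were ribodepleted RNA-seq of primary aortic endothelial cells (EC) of adult wild type C57BL/6 mice, bought as isolated cells. Cells were transduced with a lentiviral vector that carried Meis1, a homeobox transcription factor (Meis1-OE, 3 libraries), or with a control vector for yellow fluorescent protein (YFP-CTRL, 3 libraries). All libraries came from cells plated at 100000 per well, exposed to vector for 48 h, isolated by flow sorting at 72 h (YFP+CD31+VEC+), and then re-plated and grown until confluent before harvest. Meis1 expression was therefore vector-driven in adult EC, and the study describes the replicates of each condition as independent transductions. The animals or cell lots behind them are not named in the sources used here, so p-values measure the spread between these transductions and not between animals. Libraries are named by the letters A, B and C of the count table, and a shared letter is not known to mean a shared culture. Where 3 values of a condition are listed, they stand in the order A, B, C.

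Total counts ran from 34176592 to 47956569 per library. Meis1 was at 2961, 3477 and 3223 CPM in Meis1-OE EC and at 1.15, 1.42 and 1.87 CPM in YFP-CTRL EC, where CPM are TMM-normalized counts scaled to a common library size. The YFP-CTRL libraries did not stand together in growth. Mki67, a marker of cells in cycle, was at 63.8, 205 and 589 CPM in YFP-CTRL EC, against 628 to 672 CPM in Meis1-OE EC. The summed CPM of 15 growth genes was 571, 846 and 2119 in YFP-CTRL EC and 2117 to 2161 in Meis1-OE EC. YFP-CTRL library C was thus close to the Meis1-OE libraries in these genes while A and B were not, and edgeR results below are also given without it. That fit is singled out for this likeness, so its p-values are descriptive and not independent support. It called 16.5% of all tested genes higher and 15.2% lower, against 4.14% and 2.73% with all 6 libraries. Endothelial markers (7 genes) summed to 3039 to 3813 CPM in Meis1-OE and 4239 to 5767 CPM in YFP-CTRL EC. Cdh5, Kdr and Tek were below every YFP-CTRL library in every Meis1-OE library, while the groups overlapped for Pecam1, Tie1, Eng and Erg. Log2 fold changes (Meis1-OE minus YFP-CTRL) were -0.70, -1.23 and -0.78 for the former and -0.11, 0.075, 0.11 and 0.10 for the latter. Markers of fibroblasts and smooth muscle (8 genes) summed to 13.1 to 15.5 CPM in Meis1-OE and 33.9 to 51.9 CPM in YFP-CTRL EC. Pdgfra led this sum in every library but YFP-CTRL C. It spanned 11.75 to 11.88 CPM across Meis1-OE libraries and stood at 33.3, 49.1 and 15.6 CPM across YFP-CTRL libraries. Acta2 led in YFP-CTRL C, with 19.9 CPM against 0.21 and 2.18 CPM in A and B. Col1a1, Col1a2, Col3a1, Dcn, Myh11 and Tagln stayed at 0.64 CPM or less throughout. Markers of macrophages and blood (8 genes) summed to 69.5 to 106 CPM in Meis1-OE and 65.1 to 140.0 CPM in YFP-CTRL EC, with C1qa, C1qb and Tyrobp at 0 in every library. Nearly all of that sum was Cd68, which spanned 69.3 to 105.1 CPM across Meis1-OE libraries and 64.7 to 139.8 CPM across YFP-CTRL libraries. Counts of Ptprc, Fcer1g and Spi1 never exceeded 4, and Lyz2 peaked at 0.88 CPM, in Meis1-OE library B. The part of these markers in the Polycomb results was not tested, and in bulk RNA fewer cells of a type and less RNA per cell cannot be told apart.

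The members lie on 5 chromosomes of build GRCm38.p6 (RefSeq). Ezh1 (chr11:101191115-101226463), Suz12 (chr11:79993106-80034123), Pcgf2 (chr11:97688821-97702434), Cbx2 (chr11:119023019-119031275) and Cbx8 (chr11:119036303-119040913) share chromosome 11. Ezh2 lies at chr6:47530274-47595270, Eed at chr7:89954654-89980976, Jarid2 at chr13:44730774-44921643 and Bmi1 at chr2:18677018-18686629. Ezh2 overlaps the annotated gene F830010H11Rik and Cbx2 overlaps Gm35829. Neither is a row of the count table, and since strand use in counting is not given in the sources used here, reads from such partners could not be separated.

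The sequences below are from the 4 members whose levels differed most between YFP-CTRL libraries A and C, and they are shown because the vector expressed a factor with a known core motif. They were taken from the RefSeq promoter table of the same build, are written 5′ to 3′ on the gene's strand, and carry in capitals the Meis core TGACAG or its reverse complement CTGTCA. Ezh1 is shown for chr11:101226464-101226713 (minus strand), Cbx8 for chr11:119040914-119041163 (minus strand) and Jarid2 for chr13:44730524-44730773 (plus strand), each 250 bases that end just before the annotated start. Ezh2 is shown only for the 30 bases around its core, chr6:47595187-47595216 (minus strand), since its window falls within the annotated span of the gene.
Ezh2: tcagagcgagccCTGTCActcgcgcacgcg
Ezh1: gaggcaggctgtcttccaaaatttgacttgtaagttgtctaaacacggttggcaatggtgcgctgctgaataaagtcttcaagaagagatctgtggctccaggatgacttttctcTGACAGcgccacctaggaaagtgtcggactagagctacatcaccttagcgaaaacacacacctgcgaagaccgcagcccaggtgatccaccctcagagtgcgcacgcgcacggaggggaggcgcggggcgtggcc
Jarid2: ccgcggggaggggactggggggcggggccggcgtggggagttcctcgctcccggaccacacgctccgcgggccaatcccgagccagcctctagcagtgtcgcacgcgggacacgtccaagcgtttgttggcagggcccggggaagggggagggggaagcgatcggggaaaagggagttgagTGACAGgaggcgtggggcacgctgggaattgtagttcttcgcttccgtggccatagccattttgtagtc
Cbx8: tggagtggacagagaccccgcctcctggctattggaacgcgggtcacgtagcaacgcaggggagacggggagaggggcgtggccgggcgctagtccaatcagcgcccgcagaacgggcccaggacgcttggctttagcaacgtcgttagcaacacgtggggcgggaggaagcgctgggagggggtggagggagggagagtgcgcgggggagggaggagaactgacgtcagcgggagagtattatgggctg

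The Meis core began 135 bases before the annotated start of Ezh1 and 69 before that of Jarid2, and was not in the Cbx8 window. In Ezh2 it lay inside the annotated span, 174 bases before the transcript start that the promoter table uses, which is further downstream. It was in 3 of 9 member windows (Jarid2 has a pair of windows and Cbx2 has none in the table) and, on either strand, in 15.9% of all 32851 windows of 250 bases. The CCAAT box (CCAAT, either strand) was in the windows of Ezh2, Suz12, Cbx8 and Jarid2, against 33.8% of all windows. The cell cycle element CHR (TTTGAA) was in those of Eed and Suz12, against 16% of all windows. An E2F motif (TTTCCCGC, TTTCGCGC, TTTGCCGC or TTTGGCGC) was in that of Suz12, against 1.86% of all windows. These matches are letters in a window and say nothing of binding.

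The transcripts of the 9 genes did not differ between Meis1-OE and YFP-CTRL EC past the threshold when all 6 libraries were used. By the quasi-likelihood test of edgeR, adjusted by the Benjamini-Hochberg method, 0 of 9 were higher and 0 of 9 were lower at an adjusted p under 0.05, against 4.14% and 2.73% of all tested genes. DESeq2 also called 0 higher and 0 lower, against 7.38% and 7.84% of tested genes. At an unadjusted p under 0.05, Jarid2 was higher and Pcgf2 and Cbx8 were lower, against 12.8% of all tested genes higher and 13.4% lower. The log2 fold changes (Meis1-OE minus YFP-CTRL) were positive for 4 genes and negative for 5, with a median of -0.01, which was 0.01 over all tested genes, and a range of -0.64 to 0.56. The signs of Suz12, Bmi1 and Cbx2, all close to 0, depended on how libraries were scaled. Every Meis1-OE library lay above every YFP-CTRL library for 1 gene, Jarid2, and below for 1 gene, Pcgf2, while 17.2% and 15.9% of all tested genes were separated in these ways.

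**Figure D1:**
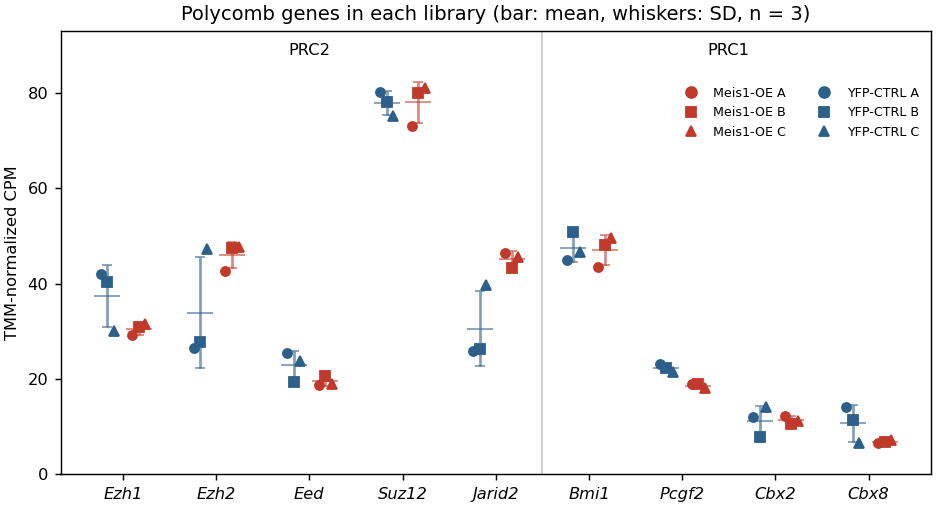
TMM-normalized CPM of the 9 Polycomb genes in each library, with YFP-CTRL in blue, Meis1-OE in red, circles, squares and triangles for libraries A, B and C, a bar at the mean and whiskers for SD (n = 3). YFP-CTRL library C sits among or near the Meis1-OE libraries for Ezh1, Ezh2, Jarid2 and Cbx8, with Ezh2 at 47.3 CPM against 26.6 and 27.7 CPM in YFP-CTRL A and B.

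Within PRC2, the catalytic subunits Ezh2 and Ezh1 had log2 fold changes of opposite sign, neither past the threshold, with wide spread among YFP-CTRL libraries. Ezh2 was at 42.7, 47.5 and 47.7 CPM in Meis1-OE EC and at 26.6, 27.7 and 47.3 CPM in YFP-CTRL EC. The groups overlapped because YFP-CTRL library C was as high as the Meis1-OE libraries, while A and B were below them all. The means were 46.0 ± 2.79 and 33.8 ± 11.7 CPM (SD, n = 3 each), and the log2 fold change was 0.44 (standard error, SE, 0.23, adjusted p = 0.2688, edgeR). In the fit without YFP-CTRL library C this value was 0.75 (SE 0.09, adjusted p = 0.002404, edgeR).

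Ezh1, the less active methyltransferase of resting cells, was at 29.1, 30.8 and 31.6 CPM in Meis1-OE EC and at 42.0, 40.3 and 29.97 CPM in YFP-CTRL EC. Here too YFP-CTRL library C fell within the Meis1-OE range and A and B lay above it. The log2 fold change was -0.30 (SE 0.15, adjusted p = 0.2628, edgeR), and -0.44 (SE 0.08, adjusted p = 0.009373, edgeR) without YFP-CTRL library C.

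Jarid2, an accessory subunit that helps to bring PRC2 to its targets, had the highest log2 fold change of the 9 genes. Its level was 46.5, 43.3 and 45.5 CPM in Meis1-OE EC and 25.8, 26.2 and 39.7 CPM in YFP-CTRL EC. The groups did not overlap, and YFP-CTRL library C again lay nearer to the Meis1-OE libraries than to A and B. The log2 fold change was 0.56 (SE 0.18, adjusted p = 0.1121 by edgeR and 0.06076 by DESeq2), and 0.79 (SE 0.09, adjusted p = 0.002007, edgeR) without YFP-CTRL library C.

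The core subunits that both enzymes need showed smaller differences. Suz12, the scaffold of the complex, was at 73.1, 80.0 and 81.1 CPM in Meis1-OE EC and at 80.3, 78.2 and 75.2 CPM in YFP-CTRL EC. The YFP-CTRL values lay within the Meis1-OE range, with a log2 fold change of 0.00 (SE 0.10, adjusted p = 0.9888, edgeR) and of -0.03 (adjusted p = 0.7964, edgeR) without YFP-CTRL library C. Eed, which binds the methyl mark, was at 18.8, 20.7 and 18.9 CPM in Meis1-OE EC and at 25.4, 19.4 and 23.8 CPM in YFP-CTRL EC. YFP-CTRL library B, not C, was the one within the Meis1-OE range, and the log2 fold change was -0.23 (SE 0.14, adjusted p = 0.3354, edgeR), or -0.21 (adjusted p = 0.2799, edgeR) without YFP-CTRL library C.

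Among the 4 PRC1 genes, Cbx8 had the log2 fold change furthest from 0, and no PRC1 gene passed the threshold with all 6 libraries. Cbx8, a chromodomain subunit that reads the methyl mark, was at 6.52, 6.81 and 7.04 CPM in Meis1-OE EC and at 14.04, 11.2 and 6.54 CPM in YFP-CTRL EC. YFP-CTRL library C lay inside the Meis1-OE range, and YFP-CTRL A was highest. The log2 fold change was -0.64 (SE 0.27, adjusted p = 0.1861, edgeR), and -0.90 (SE 0.13, adjusted p = 0.004169, edgeR) without YFP-CTRL library C. Cbx2, the other chromodomain subunit on the list, was at 12.1, 10.4 and 11.2 CPM in Meis1-OE EC and at 11.9, 7.82 and 14 CPM in YFP-CTRL EC. The YFP-CTRL values enclosed the Meis1-OE values, and the log2 fold change was 0.00 (SE 0.22, adjusted p = 0.9956, edgeR), or 0.19 (adjusted p = 0.5038, edgeR) without YFP-CTRL library C.

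The Pcgf subunits of canonical PRC1 are Bmi1 (Pcgf4) and Pcgf2 (Mel18), and their replicates lay close together in both groups. Bmi1 was at 43.6, 48.1 and 49.5 CPM in Meis1-OE EC and at 44.9, 50.8 and 46.7 CPM in YFP-CTRL EC. Its groups overlapped, with a log2 fold change of -0.01 (SE 0.11, adjusted p = 0.9585, edgeR), or -0.04 (adjusted p = 0.8239, edgeR) without YFP-CTRL library C. Pcgf2 was at 18.9, 18.8 and 18.0 CPM in Meis1-OE EC and at 23.0, 22.3 and 21.5 CPM in YFP-CTRL EC. The groups did not overlap, and all 3 YFP-CTRL libraries, C included, stood above the Meis1-OE libraries. The means were 18.6 ± 0.51 and 22.3 ± 0.76 CPM (SD, n = 3 each), and the log2 fold change was -0.26 (SE 0.11, adjusted p = 0.1813, edgeR), or -0.30 (adjusted p = 0.05523, edgeR) without YFP-CTRL library C.

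Levels of different genes were compared per kilobase of exon, with the union of all annotated exons of a gene as its length. The transcripts in use may be shorter, so the order of the genes depends on this choice. On this scale the level was highest for Suz12 in both groups, at 15.8 CPM per kb in each. Bmi1 came next, at 11.8 CPM per kb in Meis1-OE and 11.9 CPM per kb in YFP-CTRL EC, followed by Eed at 8.77 and 10.3 CPM per kb. Ezh2 was at 7.42 CPM per kb in Meis1-OE and 5.46 CPM per kb in YFP-CTRL EC, while Ezh1 was at 4.10 and 5.03 CPM per kb. Pcgf2 was at 5.39 and 6.47 CPM per kb and Jarid2 at 4.65 and 3.14 CPM per kb. The chromodomain genes were lowest, Cbx2 at 2.64 CPM per kb in each group and Cbx8 at 1.85 CPM per kb in Meis1-OE and 2.89 CPM per kb in YFP-CTRL EC.

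Leaving out YFP-CTRL library C gave 2 of 9 members higher in Meis1-OE EC (Ezh2 and Jarid2) and 2 of 9 lower (Ezh1 and Cbx8). In the same fit 16.5% of all 16443 tested genes were higher and 15.2% were lower, so the shares of the members lay near that background. This fit had a pair of YFP-CTRL libraries, both with less Mki67 than any Meis1-OE library.

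The relation to growth was first read within the YFP-CTRL libraries, whose Mki67 levels run in the order A, B, C. With only 3 libraries this order is a description and has no test. Ezh2 and Jarid2 followed Mki67 upward (2 of 9 members), as did 25.6% of all tested genes, and Ezh1, Suz12, Pcgf2 and Cbx8 ran in the reverse order (4 of 9), as did 21.3% of all tested genes. Eed, Bmi1 and Cbx2 followed neither order. The steps were uneven, since Ezh2 and Jarid2 were nearly level between YFP-CTRL A and B and higher only in C.

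The size of the difference between YFP-CTRL libraries C and A was set beside counting error, with 95% intervals that cover counting error only (Clopper-Pearson). Ezh2 was 1.78-fold as high in C as in A, a log2 ratio of 0.83 (0.72 to 0.95), and Jarid2 1.54-fold, a log2 ratio of 0.62 (0.50 to 0.74). Ezh1 had a log2 ratio of -0.49 (-0.60 to -0.38) and Cbx8 of -1.10 (-1.32 to -0.89). These 4 genes differed between the libraries by far more than the counting error that these intervals allow for. The interval of Cbx2 was 0.06 to 0.42 and that of Suz12 -0.17 to -0.02, both apart from 0 but small. Eed (-0.22 to 0.04), Bmi1 (-0.04 to 0.15) and Pcgf2 (-0.24 to 0.04) had intervals that held 0. The same log2 ratio was also taken over tested genes with more than 3 counts in both libraries. It was below -0.84 for the lowest 10% and above 0.996 for the highest 10%. Of the members, only Cbx8 lay outside these limits.

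**Figure D2:**
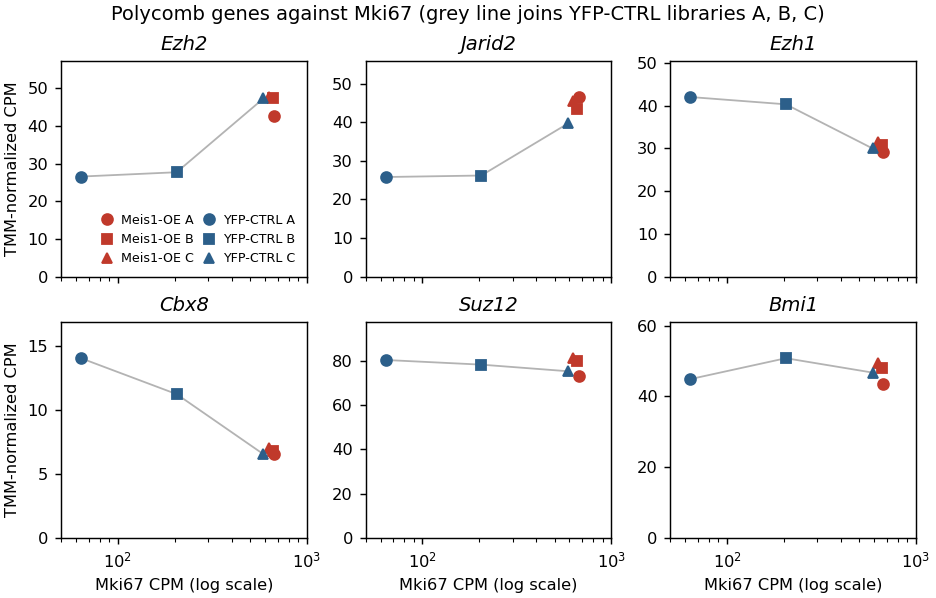
TMM-normalized CPM of 6 Polycomb genes against Mki67 CPM on a log scale, with YFP-CTRL libraries in blue joined by a grey line in the order A, B, C and Meis1-OE libraries in red. For Ezh2, Ezh1 and Cbx8 the Meis1-OE points sit around YFP-CTRL library C (Cbx8 6.54 CPM in C, 6.52 to 7.04 CPM in Meis1-OE), whereas Suz12 and Bmi1 are nearly flat.

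YFP-CTRL library C lay nearer to the Meis1-OE mean than to the mean of YFP-CTRL libraries A and B for 7 of 9 members, all but Eed and Pcgf2, and for 60.9% of all tested genes. The log2 ratio of the Meis1-OE mean to YFP-CTRL library C was 0.02 for Ezh1, -0.04 for Ezh2, 0.05 for Cbx8, 0.05 for Suz12 and 0.01 for Bmi1. It was further from 0 for Jarid2 (0.19), Pcgf2 (-0.21), Eed (-0.29) and Cbx2 (-0.32). In a fit of the 3 Meis1-OE libraries against YFP-CTRL library C alone, chosen after the data were seen and in which that single library is assumed to vary like the others, edgeR called 0 of 9 members in either direction, against 5.5% of 17063 genes higher and 5.54% lower. At an unadjusted p under 0.05 it had 0 members higher and 1 lower, against 13.2% and 13.5% of those genes.

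When log2 Mki67 CPM was added to the edgeR model as a covariate, 0 of 9 members were higher and 0 lower, against 2.21% and 1.85% of all tested genes, and 0 had an unadjusted p under 0.05, against 9.09% higher and 10.4% lower of all tested genes. The log2 fold change of Ezh2 was 0.04 (adjusted p = 0.9244, edgeR), that of Ezh1 -0.02 (adjusted p = 0.9454, edgeR) and that of Cbx8 0.01 (adjusted p = 0.987, edgeR). Jarid2 kept the highest value, 0.26 (SE 0.15, adjusted p = 0.4155, edgeR), and Pcgf2 was at -0.21 (SE 0.12, adjusted p = 0.4059, edgeR). The Mki67 level of every Meis1-OE library was above that of every YFP-CTRL library, so that condition and growth overlap in part in this design.

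**Figure D3:**
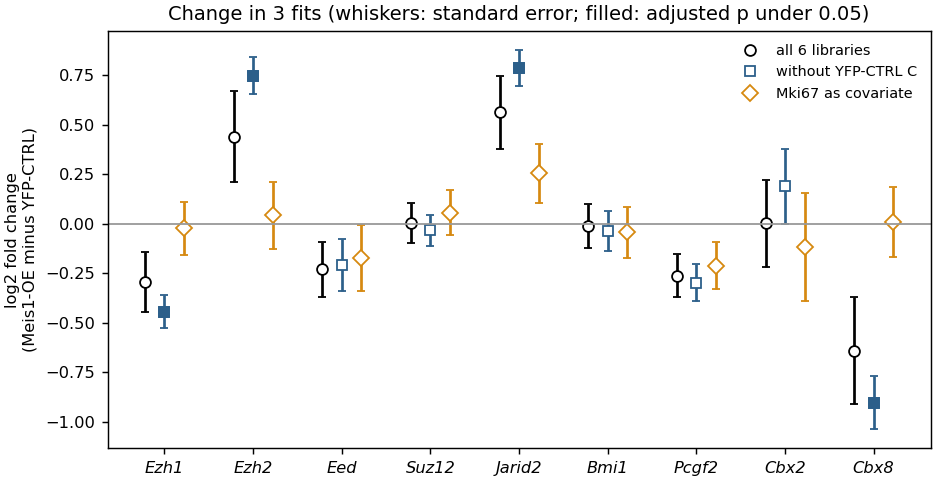
Log2 fold change (Meis1-OE minus YFP-CTRL) of each Polycomb gene with its standard error in 3 edgeR fits, using all 6 libraries (circles), without YFP-CTRL library C (squares) and with Mki67 as covariate (diamonds), filled where the adjusted p was under 0.05. Ezh1, Ezh2, Jarid2 and Cbx8 are filled only without YFP-CTRL library C, and Ezh2 moves from 0.75 in that fit to 0.04 with the covariate.

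Ratios of gene pairs within a library do not depend on library scaling, and 5 pairs were compared with the exact two-sided permutation test, whose smallest p for 3 against 3 is 0.1. Per kilobase of exon, the Ezh2 to Ezh1 ratio was 1.76, 1.85 and 1.81 in Meis1-OE EC and 0.76, 0.83 and 1.89 in YFP-CTRL EC. By this measure Ezh2 exceeded Ezh1 in all Meis1-OE libraries and in YFP-CTRL library C, and the reverse held in YFP-CTRL libraries A and B. Which gene of a pair is the higher depends on the exon lengths used, here the union of all annotated exons. Differences between libraries do not depend on them. The log2 difference of the group means was 0.77 (exact permutation p = 0.4). The Cbx2 to Cbx8 ratio behaved alike, at 1.61, 1.32 and 1.37 in Meis1-OE EC and 0.73, 0.60 and 1.85 in YFP-CTRL EC (log2 difference 0.62, exact permutation p = 0.4). In both pairs the highest ratio of all 6 libraries was that of YFP-CTRL library C.

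The Bmi1 to Pcgf2 and Jarid2 to Suz12 ratios separated the groups. Bmi1 to Pcgf2 was 1.998, 2.21 and 2.39 in Meis1-OE EC and 1.69, 1.97 and 1.88 in YFP-CTRL EC (log2 difference 0.25, exact permutation p = 0.1). Jarid2 to Suz12 was 0.32, 0.28 and 0.29 in Meis1-OE EC and 0.16, 0.17 and 0.27 in YFP-CTRL EC (log2 difference 0.59, exact permutation p = 0.1). Both p-values are the smallest that the design allows. The Eed to Suz12 ratio overlapped between groups, at 0.52 to 0.58 in Meis1-OE and 0.55 to 0.70 in YFP-CTRL EC (log2 difference -0.22, exact permutation p = 0.3). Adjusted over the 5 pairs (Benjamini-Hochberg), these exact permutation p-values were 0.25 for Bmi1 to Pcgf2 and Jarid2 to Suz12 and 0.4 for the others.

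**Figure D4:**
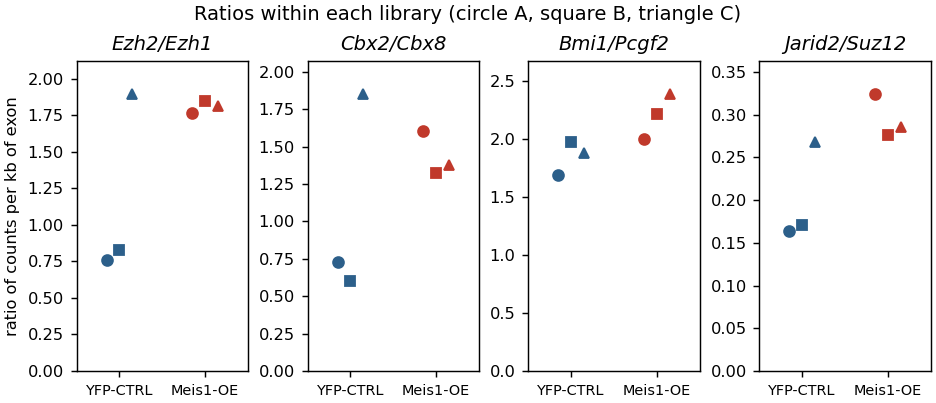
Ratio of counts per kb of exon for 4 Polycomb gene pairs in each library, with YFP-CTRL in blue, Meis1-OE in red and circles, squares and triangles for libraries A, B and C. For Ezh2/Ezh1, YFP-CTRL library C (1.89) stands with the Meis1-OE libraries (1.76 to 1.85), apart from YFP-CTRL A and B (0.76 and 0.83).

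Of 37 other PRC2 and PRC1 genes listed, 36 were in the table (all but Ezhip) and 34 passed the filter (not Scml2 and Auts2). edgeR called 0 of 34 higher and 0 of 34 lower, against the same 4.14% and 2.73% of all genes, with 1 higher and 7 lower at an unadjusted p under 0.05 (12.8% and 13.4% of all genes). DESeq2 called 0 of 34 higher and 3 of 34 lower, against 7.38% and 7.84% of tested genes, so the share called lower lay near that background. The 3 were Aebp2, a PRC2 cofactor (log2 fold change -0.46 and adjusted p = 0.07477 by edgeR, adjusted p = 0.02169 by DESeq2), Pcgf5 (-0.41, adjusted p = 0.06087 by edgeR and 0.005482 by DESeq2) and Pcgf6 (-0.61, adjusted p = 0.113 by edgeR and 0.04799 by DESeq2). Log2 fold changes were positive for 15 and negative for 19, with a median of -0.07 and a range of -0.68 to 1.09. Groups were separated upward for 5 of 34 and downward for 8 of 34, against 17.2% and 15.9% of all genes. Among the YFP-CTRL libraries, 5 of 34 followed the Mki67 order and 13 of 34 the reverse order, against 25.6% and 21.3% of all genes.

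The paralogs and partners of the members include the ends of this range. Phf19, an accessory PRC2 subunit of the Polycomb-like family, was at 18.9, 21.0 and 22.7 CPM in Meis1-OE EC and at 3.65, 7.04 and 18.6 CPM in YFP-CTRL EC. Like Ezh2, Phf19 was highest of the YFP-CTRL libraries in C, over a wider range. Unlike Ezh2, it also rose from A to B, and library C lay below all Meis1-OE libraries. The groups thus did not overlap (log2 fold change 1.09, SE 0.51, adjusted p = 0.2282, edgeR). Mtf2, of the same family, had a log2 fold change of 0.20 (adjusted p = 0.464, edgeR). The histone chaperones of the core, Rbbp4 and Rbbp7, had log2 fold changes of 0.04 and -0.07.

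Rnf2 (Ring1B), the main ubiquitin ligase of PRC1, was at 21.8, 24.7 and 25.6 CPM in Meis1-OE EC and at 48.6, 42.2 and 24.6 CPM in YFP-CTRL EC. YFP-CTRL library C lay inside the Meis1-OE range, as it did for Cbx8 (log2 fold change -0.68, SE 0.24, adjusted p = 0.1357, edgeR). Its paralog Ring1 was at 9.96 to 10.9 CPM in Meis1-OE and 7.51 to 16.3 CPM in YFP-CTRL EC (log2 fold change -0.15, adjusted p = 0.764, edgeR). Cbx6 was at 241 to 269 CPM in Meis1-OE and 200 to 298 CPM in YFP-CTRL EC (log2 fold change 0.10). Cbx7 was low, at 0.51 to 1.27 CPM in all libraries (log2 fold change 0.56, adjusted p = 0.2911, edgeR).

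Without YFP-CTRL library C, 4 of 34 were higher and 10 of 34 were lower by edgeR, against 16.5% and 15.2% of all genes. The 4 were Phf19 (1.94, adjusted p = 0.004026), E2f6 (0.45, adjusted p = 0.008214), Pcgf3 (0.44, adjusted p = 0.02496) and Cbx6 (0.30, adjusted p = 0.04321), and the 10 included Rnf2 (-0.93, adjusted p = 0.001737), where each value is the log2 fold change of that fit. Aebp2 (-0.57, adjusted p = 0.004234), Pcgf5 (-0.42, adjusted p = 0.017) and Pcgf6 (-0.79, adjusted p = 0.005929, all edgeR) were also among the 10. Not called in that fit were Mtf2 (0.33, adjusted p = 0.06917), Ring1 (-0.40, adjusted p = 0.1183), Rbbp4 (0.04, adjusted p = 0.7814), Rbbp7 (-0.12, adjusted p = 0.3081) and Cbx7 (0.71, adjusted p = 0.1758, all edgeR). YFP-CTRL library C was nearer to the Meis1-OE mean for 23 of 34, against 60.9% of all genes.

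Of 9 genes that oppose or remove Polycomb marks, edgeR called 0 higher and 0 lower (0 and 2 at an unadjusted p under 0.05), and DESeq2 called 0 higher and 2 lower. Over all tested genes these shares were 4.14% and 2.73% by edgeR, 12.8% and 13.4% at an unadjusted p under 0.05, and 7.38% and 7.84% by DESeq2. Kdm6b, a demethylase of lysine 27 of histone H3, was at 83.5, 73.0 and 75.1 CPM in Meis1-OE EC and at 233, 194 and 86.2 CPM in YFP-CTRL EC (log2 fold change -1.15, adjusted p = 0.08158 by edgeR and 0.008243 by DESeq2). YFP-CTRL library C was close to the Meis1-OE libraries in this gene too, and without it Kdm6b was lower by edgeR (log2 fold change -1.47, adjusted p = 0.0006854). Kmt2a, a trithorax methyltransferase of lysine 4, was at 181 to 192 CPM in Meis1-OE and 218 to 250 CPM in YFP-CTRL EC, with library C (238 CPM) among the YFP-CTRL values (log2 fold change -0.35, adjusted p = 0.08725 by edgeR and 0.01903 by DESeq2). When library C was left out, Kmt2a again had a log2 fold change of -0.35 (adjusted p = 0.03147, edgeR). That fit also called Kdm6a lower (-0.54, adjusted p = 0.009357, edgeR) and Mbd5 higher (0.43, adjusted p = 0.01672, edgeR). It called 16.5% of all tested genes higher and 15.2% lower.

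**Figure D5:**
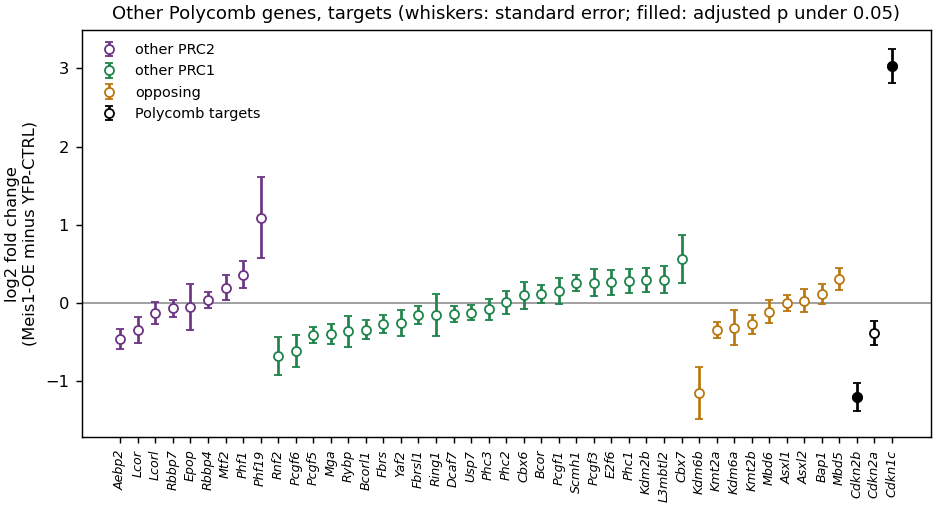
Log2 fold change (Meis1-OE minus YFP-CTRL) with standard error of other PRC2, other PRC1 and opposing genes and of 3 Polycomb targets, for the genes reported here that passed the filter, from the edgeR fit of all 6 libraries, filled where the adjusted p was under 0.05. Only Cdkn1c (3.03) and Cdkn2b (-1.20) are filled, and Phf19 (1.09) is the highest of the complex genes.

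Of 3 cell cycle inhibitor genes known as Polycomb targets, edgeR called 1 higher and 1 lower in Meis1-OE EC, against 4.14% and 2.73% of all tested genes. Polycomb binding and histone marks were not measured in these libraries, so the part of Polycomb in these calls was not tested. Cdkn1c, which encodes the inhibitor p57, was at 4.70, 4.54 and 3.89 CPM in Meis1-OE EC and at 0.50, 0.56 and 0.53 CPM in YFP-CTRL EC. YFP-CTRL library C was no different from A and B here, and Cdkn1c was higher in Meis1-OE EC with a log2 fold change of 3.03 (SE 0.22, adjusted p = 0.001533, edgeR). Counts were 180 to 215 in Meis1-OE and 17 to 24 in YFP-CTRL libraries. The log2 fold change of Cdkn1c was 3.02 without YFP-CTRL library C (adjusted p = 0.0008052, edgeR) and 2.99 with Mki67 as covariate (adjusted p = 0.007122, edgeR).

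Cdkn2b, which encodes p15, was at 39.6, 41.4 and 43.9 CPM in Meis1-OE EC and at 100.4, 114.8 and 72.3 CPM in YFP-CTRL EC. All Meis1-OE libraries lay below all YFP-CTRL libraries, with library C the lowest of the latter, and the log2 fold change was -1.20 (SE 0.18, adjusted p = 0.01221, edgeR). It was -0.94 with Mki67 as covariate (adjusted p = 0.04211, edgeR), and -1.38 without YFP-CTRL library C (adjusted p = 0.0006395, edgeR). Without Meis1-OE library A, B or C in turn the log2 fold change was -1.17, -1.20 and -1.24, of much the same size, while the adjusted p was 0.0633, 0.08321 and 0.06873 (edgeR), so the call was lost. Calls fell over all genes as well, with 68, 16 and 18 genes lower in those fits against 438 with all 6 libraries. Without YFP-CTRL library A or B the call of Cdkn2b held (log2 fold change -1.19 and -1.04, adjusted p = 0.02845 and 0.04996, edgeR), with 431 and 66 genes called lower. Cdkn2a, its neighbour, which encodes p16 and p19ARF, was at 18.4, 18.7 and 17.9 CPM in Meis1-OE EC and at 19.4, 24.2 and 28.0 CPM in YFP-CTRL EC. Its groups did not overlap, but the log2 fold change of -0.38 missed the threshold (SE 0.16, adjusted p = 0.1747, edgeR), and with Mki67 as covariate it was -0.65 (adjusted p = 0.03191, edgeR). In the fit that left out YFP-CTRL library C, Cdkn2a was at -0.26 on the log2 scale (adjusted p = 0.1797, edgeR).

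Of 39 genes of the Hox clusters, 20 passed the filter, edgeR called 0 higher and 2 lower (1 and 6 at an unadjusted p under 0.05), and DESeq2 called 0 higher and 5 lower. Over all tested genes these shares were 4.14% and 2.73% by edgeR, 12.8% and 13.4% at an unadjusted p under 0.05, and 7.38% and 7.84% by DESeq2. The 2 lower by edgeR, named after their values were seen, were Hoxd9 (14.3 ± 0.42 against 26.0 ± 1.72 CPM, SD, n = 3 each, log2 fold change -0.86, adjusted p = 0.009689) and Hoxd10 (4.003 ± 0.21 against 9.05 ± 1.18 CPM, SD, n = 3 each, log2 fold change -1.18, adjusted p = 0.01071). In the fit that left out YFP-CTRL library C, log2 fold changes were -0.89 for Hoxd9 (adjusted p = 0.002124, edgeR) and -1.27 for Hoxd10 (adjusted p = 0.001995, edgeR), and 2 of 20 Hox genes were higher and 5 lower, against 16.5% and 15.2% of all genes. Neighbouring Hox transcripts overlap, so reads may be shared between such genes. The median over the 20 was -0.10, with 7 positive and 13 negative log2 fold changes and a range of -4.15 to 0.94. The lowest was that of Hoxb9, at 1.03, 1.17 and 1.23 CPM in Meis1-OE EC and at 24.7, 35.8 and 0.59 CPM in YFP-CTRL EC. For Hoxb9, YFP-CTRL library C lay below all Meis1-OE libraries and A and B far above them (SE 1.17, adjusted p = 0.07803 by edgeR and 0.009653 by DESeq2).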

How the data were processed

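RNA was measured in 6 libraries, 3 Meis1-OE and 3 YFP-CTRL, and groups came from the labels. The authors deposited unnormalized estimated counts of reads for each gene as 1 table that lists 54429 genes by symbol. The submitters' processing notes name build mm10, and the aligner and counter are not given in the sources used here. Counts were rounded to whole numbers, since 7767 to 8411 genes per library were not whole. Tests used edgeR 4.0.16 in R 4.3.3 (TMM, filterByExpr, quasi-likelihood test, Benjamini-Hochberg adjustment over 16065 genes, threshold 0.05), with DESeq2 1.42.0 as an alternative. The scripts were tested on simulated data with less spread than the deposited data and no growth difference within a group. That checks the code and not the calls reported here. The biological coefficient of variation of the deposited data was 0.233. Figures were drawn with matplotlib 3.10.9. Exon lengths were the union of all annotated exons of a gene in build NCBIM37 and were used only for length. Gene spans and promoters came from RefSeq (GRCm38.p6). Intervals cover only the error of counting and take reads as independent. The reads carry no molecular identifiers and may repeat a molecule, so the true counting error may be larger.

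The genes named are all members, the other Polycomb and opposing genes past the threshold by edgeR, the paralogs Rbbp4, Rbbp7, Ring1, Rnf2, Cbx6, Cbx7, Phf19 and Mtf2, the targets Cdkn1c, Cdkn2a and Cdkn2b, and for Ezh2 and Ezh1 the 3 genes most alike. Of the genes that the rule names, 1 is not reported here. Genes called only by DESeq2, or only without YFP-CTRL library C, were named after their values were seen. Members and lists were chosen with earlier results of these data known. Alternatives were scaling by DESeq2's size factors or by library totals, omission of the filter or a minimum of 10 counts throughout, robust fitting, DESeq2, a threshold of 0.1, Mki67 or a growth score (mean log2(CPM + 1) of 15 genes) as covariate, the column letter as a replicate block, each library left out, and YFP-CTRL library C alone, the last added after seeing the data.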

Additional observations from a re-analysis of the deposited data

How the results depend on the processing

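The counts of Polycomb members called were 0 higher and 0 lower with all 6 libraries, and 0 to 2 in each direction when 1 library was left out, with 2 and 2 only without YFP-CTRL library C. That fit called 16.5% of all tested genes higher and 15.2% lower. Of the other Polycomb genes, 0 to 4 were higher and 0 to 10 lower when 1 library was left out, again with 4 and 10 only without YFP-CTRL library C. By DESeq2 3 were lower, against 7.84% of tested genes. At a threshold of 0.1, for which no share over all genes was computed, 2 were lower. With the column letter as a replicate block, edgeR called 0 members and 0 other Polycomb genes in either direction. Over all 16065 tested genes it called 544 higher and 189 lower, against 665 and 438 without the block. At an unadjusted p under 0.05 the block fit had 2 members higher and 0 lower, and the share of all genes at that level was not computed. Deviations of libraries with the same letter correlated at 0.15 (A), 0.19 (B) and 0.04 (C), so the letters were not taken as pairs. Library totals shifted the median log2 fold change of all genes to 0.15 and the calls to 1048 higher and 179 lower.

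Some log2 fold changes of members changed sign, none of them past the threshold in the alternative concerned, and the cause was not tested. Suz12 was at -0.0133 under DESeq2's size factors, -0.0132 by DESeq2 and -0.033 to 0.0501 with 1 library left out. Bmi1 was at 0.1289 under library totals, 0.0173 against YFP-CTRL library C alone and -0.0669 to 0.0469 with 1 library left out. Cbx2 was at -0.0092 under DESeq2's size factors, -0.0093 by DESeq2, -0.1165 with Mki67 and -0.1837 with the growth score as covariate, -0.3062 against YFP-CTRL library C alone and -0.1916 to 0.1894 with 1 library left out. Cbx8 was at 0.0088 with Mki67 and 0.0331 with the growth score as covariate, and 0.0624 against YFP-CTRL library C alone, where Ezh1 was at 0.0318 and Ezh2 at -0.0337. Eed, Pcgf2 and Jarid2 kept their sign in all 16 alternatives run. The members had 297 to 3756 counts in each library, and the part of depth in the results was not tested.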

Other observations

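Of 10222 genes with a mean of at least 5 CPM, the genes whose log2 CPM over the 6 libraries was most like that of Ezh2 were Cbx5 (HP1 alpha, a heterochromatin protein that reads methylated lysine 9 of histone H3; r = 0.9993), Fads2 (a fatty acid desaturase; r = 0.9984) and Srebf1 (a transcription factor of lipid synthesis; r = 0.9982). A Pearson r above 0.95 with Ezh2 was found for 652 of these genes. For Ezh1 the closest were Zhx2 (r = 0.998), Slu7 (a splicing factor; r = 0.9978) and Surf6 (r = 0.9975), and 678 genes were above 0.95. These values describe 6 libraries that share condition, growth and depth, and have no test.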
